A study of Homo sapiens with 12 samples.

Results

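The aryl hydrocarbon receptor (AhR) pathway and its xenobiotic-metabolising CYP1 enzymes were followed through 8 genes: AHR, ARNT, ARNT2, AHRR, TIPARP, CYP1A1, CYP1B1 and POR. Each gene was found by its symbol among 30574 loci, and each matched 1 locus. Of the 8, 6 were among the 12182 loci with enough signal to be tested, and AHR and ARNT2 were not. RNA came from IOSE80, an immortalised line grown from normal human ovarian epithelium, after 28 days with bisphenol A (BPA) at 0.25 nM (n = 3), BPA at 2500 nM (n = 3), E2 (n = 2) or 0.1% DMSO (n = 3). BPA is a plastics monomer that acts as a weak oestrogen. E2 is the common abbreviation of oestradiol. No dose of E2 and no solvent for BPA or E2 is stated in the labels, and the remaining E2 sample of the 12 listed was not analysed here. The labels do not say whether replicates came from separate cultures. The p-values therefore describe the spread between these libraries alone, which may be technical.

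AhR is a ligand-activated transcription factor of the bHLH-PAS family. Without ligand it is held in the cytoplasm by HSP90 and its co-chaperones, and dioxins, polycyclic aromatic hydrocarbons or some tryptophan metabolites release it to the nucleus, where it pairs with ARNT on xenobiotic response elements with the core GCGTG. CYP1A1 and CYP1B1 are its best-known target genes, and their enzymes oxidise aromatic pollutants and hydroxylate oestradiol to catechol oestrogens with electrons that POR passes on from NADPH. AHRR and TIPARP are also induced by the receptor, and both proteins restrain it.

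Promoters of the members were searched for that core, since binding there is the textbook route from the receptor to these genes. RefSeq windows on GRCh38.p14, from 250 bases before to 50 bases after an annotated start, were available for 5 of the 8 members (AHR, ARNT, AHRR, CYP1A1 and TIPARP), with 8 windows in all. GCGTG, or CACGC on the other strand, was in 5 of the 8 windows, and in 36.5% of all 35116 windows of this length. A window each of CYP1A1 and TIPARP is printed because the differences of these genes between groups are described most closely below, with GCGTG or CACGC in capitals. The CYP1A1 window lies at chr15:74725479-74725778 on the minus strand and held 1 match, and the printed TIPARP window lies at chr3:156674340-156674639 on the plus strand and held 2 matches, both as CACGC. TIPARP has 3 windows, and those at chr3:156674676-156674975 and chr3:156676414-156676713 held 0 matches. A match is a description of letters and does not show that the receptor binds there. Sites outside these short windows were not searched.
CYP1A1: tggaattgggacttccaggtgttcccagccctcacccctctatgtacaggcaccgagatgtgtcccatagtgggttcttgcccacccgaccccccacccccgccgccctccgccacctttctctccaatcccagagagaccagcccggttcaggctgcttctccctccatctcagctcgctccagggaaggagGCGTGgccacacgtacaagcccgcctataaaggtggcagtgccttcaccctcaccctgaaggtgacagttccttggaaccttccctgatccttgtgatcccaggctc
TIPARP: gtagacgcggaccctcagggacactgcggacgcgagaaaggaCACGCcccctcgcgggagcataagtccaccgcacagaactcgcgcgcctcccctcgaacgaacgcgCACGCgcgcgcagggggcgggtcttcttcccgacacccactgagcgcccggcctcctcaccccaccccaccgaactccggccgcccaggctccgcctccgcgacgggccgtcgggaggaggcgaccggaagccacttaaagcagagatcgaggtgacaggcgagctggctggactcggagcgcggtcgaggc

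The deposited values are FPKM (fragments normalised for transcript length and for library size), so levels of different genes can be compared per length. FPKM totals were between 206719 and 213663 per library, which does not measure depth, and absolute depth is unknown. The commonest FPKM times length at 6225 short loci with 1 transcript, sought in a preset range near 0, was taken as the step of a single fragment. It gave an estimated relative depth between 1.0 in DMSO replicate 1 and 1.59 in DMSO replicate 2. The preset range bounds this estimate and the fragment numbers given below. Mitochondrial transcripts took 12.62% to 12.66% of FPKM with BPA 0.25 nM, 12.94% to 13.62% with BPA 2500 nM and 12.26% to 14.0% with E2, against 13.63% to 14.31% in DMSO, and the part of this share in the results below was not tested. Of the markers of ovarian surface epithelium, ALDH1A1 averaged 109 FPKM, KRT18 22.8 FPKM, NR2F2 3.19 FPKM and KRT8 1.34 FPKM over all libraries, while the epithelial markers KRT7 (0.19), KRT19 (0.15), EPCAM (0.35), CDH1 (0.01), PAX8 (0.01) and WT1 (0.0) were at or near 0. The mesenchymal marker VIM averaged 688 FPKM, COL3A1 28.7 FPKM and PDGFRA 5.23 FPKM, and the granulosa marker FOXL2 averaged 6.78 FPKM, while the fibroblast markers COL1A2 (0.02) and DCN (0.0), leukocyte PTPRC (0.0) and endothelial CDH5 (0.0) were at or near 0. The other listed markers of ovarian surface epithelium, GATA4 (0.0), BNC1 (0.0), UPK3B (0.01), MSLN (0.04) and CALB2 (0.05), were also at or near 0. Beside FOXL2, the granulosa marker AMH averaged 0.78 FPKM and FSHR had no locus. COL1A1 (0.42) and LUM (0.02) of the mesenchymal and fibroblast list were low. A few markers of the labelled cell type were thus present, while most of those listed were at or near 0. In bulk RNA, fewer cells that express a gene and less of its RNA per cell cannot be told apart.

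The cells carried almost no AHR transcripts, many transcripts of its partner ARNT, and low but measurable transcripts of CYP1A1. CYP1B1 was also low, but its value is that of a locus joined with RMDN2-AS1. Averaged over the 11 libraries, the order was ARNT (19.8 FPKM), POR (9.72 FPKM), the AHRR locus (6.76 FPKM), TIPARP (4.67 FPKM), CYP1B1 (1.57 FPKM), CYP1A1 (1.02 FPKM), ARNT2 (0.354 FPKM) and AHR (0.029 FPKM). The ranges of neighbours in this order did not overlap, except that the highest CYP1A1 library (1.35 FPKM) was above the lowest CYP1B1 library (1.33 FPKM). Even so, the CYP1B1 locus was above CYP1A1 within each of the 11 libraries, though how much of it belongs to CYP1B1 is uncertain. The coefficient of variation over libraries was smallest for ARNT (3.97%), the AHRR locus (4.18%) and POR (4.75%), against a median of 10.37% over all tested loci. It was 9.15% for TIPARP, 11.72% for CYP1B1 and 22.77% for CYP1A1, the widest among the 6 tested members.

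**Figure D1:**
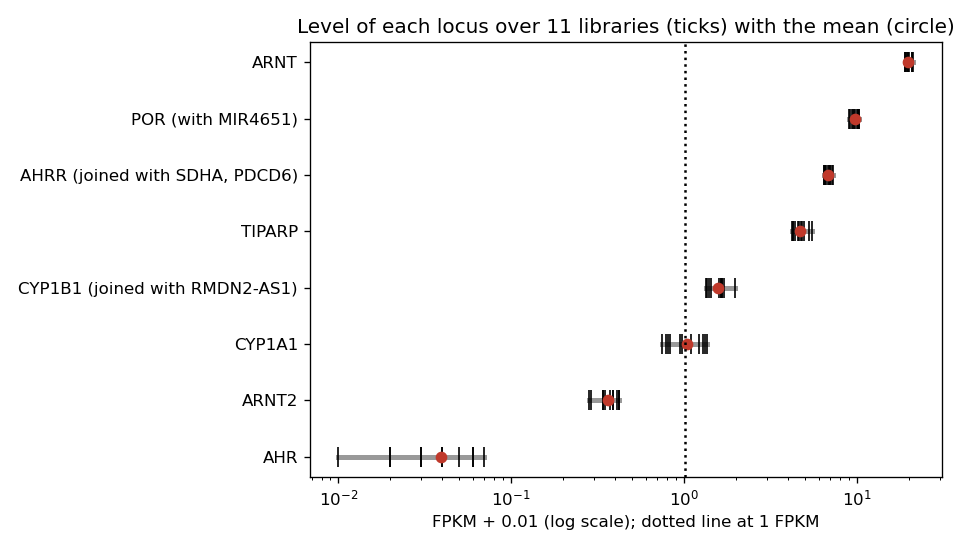
FPKM of each locus on a log axis, with 0.01 added so that 0 can be drawn. Ticks are the 11 libraries, circles are means and the dotted line is at 1 FPKM. AHR lies far left of all other loci and ARNT (mean 19.8 FPKM) farthest right, and the ticks of CYP1A1 fall on both sides of 1 FPKM.

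AHR, the receptor itself, has the identifier ENSG00000106546 and spans chr7:16916359-17346152 on the plus strand of GRCh38. It was listed at 0.03, 0.01 and 0.05 FPKM with BPA 0.25 nM, at 0.0, 0.02 and 0.04 FPKM with BPA 2500 nM, at 0.02 and 0.05 FPKM with E2, and at 0.03, 0.01 and 0.06 FPKM in DMSO. The 4 groups overlapped throughout. With its longest transcript of 6958 bases, these values equal an estimated 0.0 to 6.3 fragments per library, so no difference between groups was detectable at this depth. No other locus in the files overlaps the AHR gene and could have taken its fragments.

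ARNT, the nuclear partner of AhR and also of the hypoxia factor HIF1A, lies at chr1:150809713-150876705 on the minus strand (MSTRG.1277, a locus of the authors' merged assembly). It had 21.1, 19.7 and 18.9 FPKM with BPA 0.25 nM, 19.6, 20.7 and 19.2 FPKM with BPA 2500 nM, 19.6 and 18.8 FPKM with E2, and 20.0, 19.1 and 20.9 FPKM in DMSO. All treated groups overlapped the DMSO libraries. Differences are given on the log2(FPKM + 1) scale, which understates changes at low levels, with the standard error (SE) and 95% interval from limma. For ARNT they were -0.008 ± 0.054 for BPA 0.25 nM (-0.13 to 0.11), -0.011 ± 0.054 for BPA 2500 nM (-0.13 to 0.11) and -0.054 ± 0.060 for E2 (-0.19 to 0.081). The adjusted p (Benjamini-Hochberg over all tested loci) was 0.727 or higher in these 3 comparisons.

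ARNT2, a paralogue of ARNT best known from neurons and kidney, lies at chr15:80404350-80597933 on the plus strand (ENSG00000172379). It had 0.33, 0.41 and 0.41 FPKM with BPA 0.25 nM, 0.33, 0.28 and 0.27 FPKM with BPA 2500 nM, 0.34 and 0.38 FPKM with E2, and 0.4, 0.36 and 0.38 FPKM in DMSO. The BPA 2500 nM libraries were below every DMSO library and the other 2 treated groups overlapped DMSO. ARNT2 did not reach 1 FPKM in any library, so it was not tested, and over all libraries ARNT exceeded it in FPKM throughout.

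**Figure D2:**
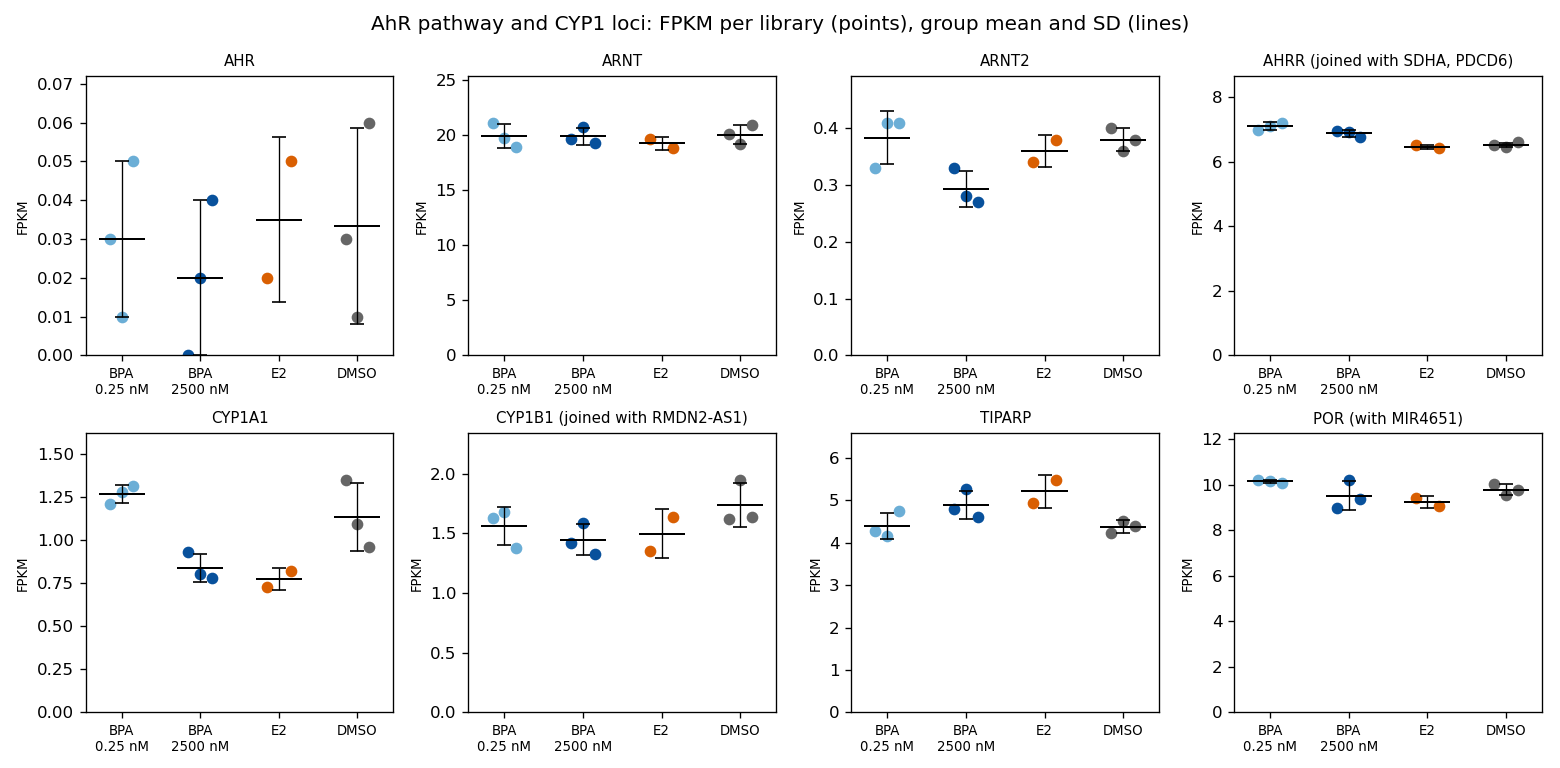
FPKM (vertical axes, each from 0) of the 8 loci in every library. Points are libraries, horizontal lines are group means and bars are ±1 SD, with BPA 0.25 nM, BPA 2500 nM, E2 and DMSO from left to right. The BPA 2500 nM and E2 points of CYP1A1 lie below all its DMSO points, the E2 points of TIPARP lie above all its DMSO points, and ARNT and POR are nearly flat.

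None of the 6 tested members passed the threshold of an adjusted p under 0.05 in any of the 6 pairwise comparisons between groups. Against DMSO, 0 of 6 were called with BPA 0.25 nM, where 0.0164% of all tested loci were called, 0 of 6 with BPA 2500 nM, where 1.3% were called, and 0 of 6 with E2, where 0.419% were called. Between treatments, 0 of 6 were called for BPA 2500 nM against BPA 0.25 nM (0.0657% of all loci), 0 of 6 for E2 against BPA 0.25 nM (0.0493%) and 0 of 6 for E2 against BPA 2500 nM (0.041%). With shares this small among all loci, a count of 0 among 6 does not set the members apart. At an unadjusted limma p under 0.05, 1 of 6 passed for BPA 0.25 nM against DMSO (9.11% of all loci), 1 of 6 for BPA 2500 nM against DMSO (17.2%) and 2 of 6 for E2 against DMSO (15.4%). Those against DMSO were the AHRR locus with BPA 0.25 nM, CYP1A1 with BPA 2500 nM, and CYP1A1 and TIPARP with E2. Between treatments, 1 of 6 passed for BPA 2500 nM against BPA 0.25 nM (7.81%), which was CYP1A1. For E2 against BPA 0.25 nM 3 of 6 passed (12.6%), namely CYP1A1, TIPARP and the AHRR locus, and for E2 against BPA 2500 nM 0 of 6 (9.01%). Libraries of the treated group lay wholly above or below DMSO for 2 of 6 members with BPA 0.25 nM (17.1% of all loci), 4 of 6 with BPA 2500 nM (26.6%) and 3 of 6 with E2 (28.4%). The 3 comparisons with DMSO share the DMSO libraries. The AHRR locus, which also holds SDHA and PDCD6, is among the members in these counts. So is CYP1A1, which passed the filter only through libraries of BPA 0.25 nM and DMSO. The counts are therefore a description only.

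CYP1A1, the enzyme whose transcript is the standard readout of AhR activation, was the member whose libraries differed most between groups. It lies at chr15:74719542-74725536 on the minus strand (ENSG00000140465). The libraries read 1.21, 1.28 and 1.31 FPKM with BPA 0.25 nM, 0.93, 0.8 and 0.78 FPKM with BPA 2500 nM, 0.73 and 0.82 FPKM with E2, and 1.35, 1.09 and 0.96 FPKM in DMSO. All libraries of BPA 2500 nM and E2 were below all DMSO libraries, though the nearest, 0.93 FPKM, was only just below the lowest DMSO library at 0.96 FPKM. CYP1A1 passed the filter of 1 FPKM in 2 libraries only through 5 libraries, 3 of BPA 0.25 nM and 2 of DMSO. These are the groups where it was higher, so its differences from them are given below as a description only.

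The mean of CYP1A1 was 0.837 ± 0.081 FPKM with BPA 2500 nM (SD, n = 3), or 0.738 times the 1.13 ± 0.20 FPKM in DMSO (n = 3). The log2 difference was -0.21 ± 0.084 (95% interval -0.40 to -0.025), with an adjusted p of 0.238 by limma. With E2 the mean was 0.775 ± 0.064 FPKM (n = 2), or 0.684 times that in DMSO, and the log2 difference was -0.26 ± 0.093 (-0.47 to -0.052, adjusted p = 0.222). Neither difference passed the adjustment over 12182 loci. Both intervals were below 0, but CYP1A1 entered the test only through libraries of DMSO and BPA 0.25 nM. The intervals are therefore a description and no support for a difference. With BPA 0.25 nM the mean was 1.27 ± 0.05 FPKM (n = 3), and the libraries overlapped DMSO, with a log2 difference of 0.091 ± 0.084 (-0.096 to 0.28, adjusted p = 0.785).

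Between the 2 doses of BPA, CYP1A1 was at 0.661 times the BPA 0.25 nM mean in the BPA 2500 nM group. The log2 difference between them was -0.30 ± 0.084 (-0.49 to -0.12, adjusted p = 0.434), and no library of the higher dose reached the lowest library of the lower dose. E2 against BPA 0.25 nM gave -0.35 ± 0.093 (-0.56 to -0.14, adjusted p = 0.249), and E2 against BPA 2500 nM gave -0.049 ± 0.093 (-0.26 to 0.16, adjusted p = 0.874). As a description, CYP1A1 differed most between the BPA 0.25 nM libraries, through which it passed the filter, and those of BPA 2500 nM and E2. These differences were short of the threshold. With its longest transcript of 2685 bases, CYP1A1 rested on an estimated 29.3 to 64.3 fragments per library, so counting error alone is wide at this level.

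CYP1B1, the CYP1 enzyme best known from steroid-responsive tissues, was counted in a locus at chr2:37949911-38076154 on the minus strand (MSTRG.10534) that also holds RMDN2-AS1. Loci of RMDN2 (3.06 to 4.16 FPKM) and of CYP1B1-AS1 (1.68 to 2.0 FPKM) overlap the gene on the other strand. Since the sources name no strand setting, the level of CYP1B1 is uncertain. The locus had 1.63, 1.68 and 1.38 FPKM with BPA 0.25 nM, 1.42, 1.59 and 1.33 FPKM with BPA 2500 nM, 1.35 and 1.64 FPKM with E2, and 1.62, 1.95 and 1.64 FPKM in DMSO. Only the BPA 2500 nM libraries were all below the DMSO libraries, at a mean of 1.45 ± 0.13 FPKM against 1.74 ± 0.18 FPKM (SD, n = 3 each). The log2 difference was -0.094 ± 0.082 with BPA 0.25 nM (-0.28 to 0.089, adjusted p = 0.772). It was -0.16 ± 0.082 with BPA 2500 nM (-0.34 to 0.023, adjusted p = 0.347) and -0.13 ± 0.091 with E2 (-0.34 to 0.072, adjusted p = 0.541). All 3 intervals span 0, so neither a difference nor equal levels are shown.

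The CYP1B1 locus had a higher mean than CYP1A1. Loci most like the CYP1B1 locus across the 11 libraries were sought among 10933 tested loci that name 1 gene. They were STARD4-AS1 (Pearson r = 0.921), FMNL2 (r = 0.909) and NHSL1 (r = 0.901) on the log2 scale. These are the highest of many correlations over libraries that share their groups, and are given as a description only. AHR was too low for such a pattern to be read.

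AHRR, the AhR repressor, which competes for ARNT, cannot be read on its own here. The deposited locus (MSTRG.14568, chr5:218241-438291, plus strand) joins SDHA, a respiratory chain subunit, and PDCD6, a calcium-binding protein, with AHRR, whose own gene covers chr5:304176-438291. The joined locus had 6.97, 7.11 and 7.21 FPKM with BPA 0.25 nM, 6.96, 6.91 and 6.76 FPKM with BPA 2500 nM, 6.5 and 6.42 FPKM with E2, and 6.5, 6.46 and 6.6 FPKM in DMSO. Both BPA groups were above every DMSO library and E2 overlapped DMSO. Libraries of a group were close, with a pooled within-group coefficient of variation of 1.36%. The log2 difference was 0.11 ± 0.039 with BPA 0.25 nM (0.019 to 0.19, adjusted p = 0.486), 0.067 ± 0.039 with BPA 2500 nM (-0.021 to 0.15, adjusted p = 0.412) and -0.012 ± 0.044 with E2 (-0.11 to 0.087, adjusted p = 0.939). None passed, and how much of the value belongs to AHRR was not tested.

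TIPARP, a mono-ADP-ribosyltransferase that modifies AhR and limits its activity, lies at chr3:156673235-156706770 on the plus strand (MSTRG.13615). It had 4.27, 4.17 and 4.74 FPKM with BPA 0.25 nM, 4.79, 5.27 and 4.61 FPKM with BPA 2500 nM, 4.93 and 5.49 FPKM with E2, and 4.23, 4.52 and 4.39 FPKM in DMSO. The libraries of E2 and BPA 2500 nM were above all DMSO libraries, and those of BPA 0.25 nM overlapped them. The E2 mean of 5.21 ± 0.40 FPKM (SD, n = 2) was 1.19 times the DMSO mean of 4.38 ± 0.14 FPKM (n = 3), with a log2 difference of 0.21 ± 0.072 (0.043 to 0.37, adjusted p = 0.217). BPA 2500 nM gave 0.13 ± 0.065 (-0.016 to 0.28, adjusted p = 0.341) and BPA 0.25 nM gave 0.002 ± 0.065 (-0.14 to 0.15, adjusted p = 0.996). TIPARP was higher where CYP1A1 was lower, with neither difference past the threshold. The antisense locus TIPARP-AS1, at 0.35 to 0.81 FPKM, overlaps its first part, so some of its fragments are uncertain.

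POR, the reductase that feeds electrons to all microsomal P450 enzymes, lies at chr7:75899200-75986855 on the plus strand (MSTRG.16787, which also names MIR4651). It had 10.2, 10.1 and 10.1 FPKM with BPA 0.25 nM, 8.98, 10.2 and 9.36 FPKM with BPA 2500 nM, 9.44 and 9.07 FPKM with E2, and 10.03, 9.54 and 9.77 FPKM in DMSO. Libraries of BPA 0.25 nM were above and those of E2 below all DMSO libraries by small margins. The log2 differences were 0.049 ± 0.051 with BPA 0.25 nM (-0.066 to 0.16, adjusted p = 0.808), -0.036 ± 0.051 with BPA 2500 nM (-0.15 to 0.078, adjusted p = 0.756) and -0.072 ± 0.057 with E2 (-0.20 to 0.056, adjusted p = 0.607).

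**Figure D3:**
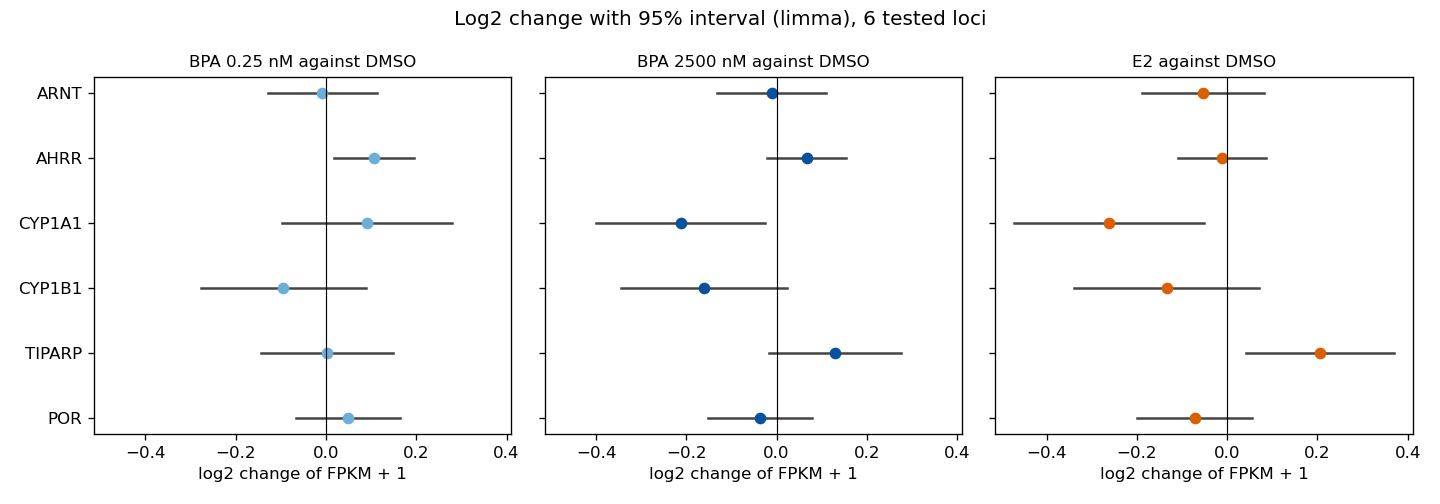
Difference from DMSO on the log2(FPKM + 1) scale (horizontal axes) for the 6 tested loci, with BPA 0.25 nM, BPA 2500 nM and E2 from left to right. Points are limma estimates and lines their 95% intervals, before adjustment over loci. The intervals of CYP1A1 with BPA 2500 nM and E2 lie below 0. Those of TIPARP with E2 and the AHRR locus with BPA 0.25 nM lie above 0, while no adjusted p was under 0.05. CYP1A1 passed the filter only through libraries of BPA 0.25 nM and DMSO, so its intervals are a description.

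Other genes of the pathway were read from 6 lists with 90 genes, of which 77 had a locus and 51 were tested, 6 of them in a locus joined with another coding gene. None of the 51 was called against DMSO with BPA 0.25 nM, BPA 2500 nM or E2, by limma. At an unadjusted limma p under 0.05, 4 of 51 passed for BPA 0.25 nM (9.11% of all loci), 10 for BPA 2500 nM (17.2%) and 6 for E2 (15.4%), so these counts are near the shares over all loci. For each list the 3 genes of highest mean are named.

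The receptor's cytoplasmic complex and its coregulators were abundant, with 16 of 17 genes tested. The HSP90 genes, which encode the chaperone that holds AhR ready for ligand, were highest. HSP90AB1 averaged 1055 ± 8 FPKM with BPA 0.25 nM, 1092 ± 30 FPKM with BPA 2500 nM and 1117 ± 20 FPKM with E2 (SD), against 1004 ± 23 FPKM in DMSO, with adjusted p-values of 0.572, 0.13 and 0.106. HSP90AA1 averaged 266 ± 13, 273 ± 32 and 299 ± 5 FPKM in the same treated groups, against 230.1 ± 19.9 FPKM in DMSO, with adjusted p-values of 0.536, 0.214 and 0.115. For both, the means of all treated groups were above DMSO without passing the test. PTGES3, a co-chaperone of HSP90, averaged 118 ± 8, 111 ± 15 and 130 ± 24 FPKM, against 120.4 ± 10.4 FPKM in DMSO. These 3 genes have processed pseudogenes whose reads the counting could share. The list medians of the log2 difference were -0.001, -0.041 and -0.038 with BPA 0.25 nM, BPA 2500 nM and E2, beside 0.001, -0.027 and -0.007 over all tested loci.

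A pair of coregulators came closer to the threshold with BPA 2500 nM and are named outside that rule, after their values were seen. NCOA3, a coactivator of nuclear receptors, averaged 7.23 ± 0.49 FPKM with BPA 2500 nM against 8.97 ± 0.42 FPKM in DMSO (adjusted p = 0.0726). It had 7.7 to 8.37 FPKM with BPA 0.25 nM (limma adjusted p = 0.559) and 7.87 to 8.92 FPKM with E2. CUL4B, a ubiquitin ligase scaffold that AhR can join, had 9.8 to 10.34 FPKM with BPA 2500 nM against 12.1 to 12.86 FPKM in DMSO (adjusted p = 0.0688). It had 10.55 to 11.5 FPKM with BPA 0.25 nM (limma adjusted p = 0.544) and 10.21 to 12.27 FPKM with E2. For both genes the BPA 0.25 nM libraries were also below all DMSO libraries, while E2 overlapped DMSO. Under 18 alternatives the adjusted p of CUL4B was between 0.0268 and 0.201, and it was under 0.05 in 2 of them, 0.027 without E2 replicate 1 and 0.0268 without E2 replicate 2.

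Of the other AhR target genes, 12 of 17 had a locus and 5 were tested. NQO1, a quinone reductase that also answers to the oxidative stress factor NRF2, averaged 161 ± 6 FPKM with BPA 0.25 nM, 157 ± 6 FPKM with BPA 2500 nM and 151 ± 3 FPKM with E2, against 153 ± 5 FPKM in DMSO (SD). CDKN1B, a cell cycle inhibitor, averaged 27.7 ± 0.4, 27.1 ± 0.4 and 28.8 ± 1.4 FPKM, against 28.5 ± 1.6 FPKM in DMSO. SLC7A5, an amino acid transporter, averaged 17.9 ± 0.5, 17.3 ± 0.7 and 16.6 ± 1.5 FPKM, against 16.5 ± 0.9 FPKM in DMSO. For these 3 genes the adjusted p was 0.505 or higher in each comparison with DMSO. CYP1A2 (mean 0.01 FPKM), ALDH3A1 (0.0), IL1B (0.0), EREG (0.02) and PTGS2 (0.04), which the receptor induces in liver or other cells, were at or near 0 in every library. The list medians were 0.019, -0.068 and 0.004 with BPA 0.25 nM, BPA 2500 nM and E2.

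STC2, a secreted glycoprotein listed among the targets, is named after its values were seen. It had 2.52, 2.15 and 2.41 FPKM with BPA 0.25 nM and 1.75, 1.81 and 2.35 FPKM with BPA 2500 nM. E2 gave 2.19 and 1.83 FPKM, against 3.28, 2.93 and 2.87 FPKM in DMSO. All libraries of every treated group were below all DMSO libraries. The log2 difference by limma was -0.26 ± 0.090 with BPA 0.25 nM (-0.46 to -0.058, adjusted p = 0.454). It was -0.44 ± 0.090 with BPA 2500 nM (adjusted p = 0.0525) and -0.42 ± 0.10 with E2 (adjusted p = 0.0902). Under 17 alternatives the adjusted p of STC2 with BPA 2500 nM was between 0.048 and 0.179, and it was under 0.05 in 3 of them, without BPA 2500 nM replicate 3 (0.048), E2 replicate 1 (0.0486) or E2 replicate 2 (0.048). STC2 is also known as an oestrogen-responsive and stress-responsive gene in other cells.

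Enzymes that take electrons from POR, and the proteins that work beside it, gave 13 tested genes of the 19 with a locus. PGRMC1, a haem-binding partner of P450 enzymes, averaged 64.7 ± 2.5 FPKM with BPA 0.25 nM, 62.7 ± 1.8 FPKM with BPA 2500 nM and 64.5 ± 1.1 FPKM with E2, against 64.9 ± 1.6 FPKM in DMSO. SQLE, the squalene epoxidase of cholesterol synthesis, averaged 21.4 ± 1.0, 23.3 ± 0.6 and 23.5 ± 1.7 FPKM, against 21.8 ± 1.4 FPKM in DMSO. CYB5B, which encodes a small haem protein of the outer mitochondrial membrane, was higher than 10 FPKM in every library but varied widely within groups. CYP19A1, the aromatase that makes oestrogens, was at 0.0 FPKM. The list medians were -0.0, -0.017 and -0.023 with BPA 0.25 nM, BPA 2500 nM and E2.

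The enzymes that turn tryptophan into AhR ligands gave 5 tested genes, 3 of them in joined loci. IDO1, IDO2 and KMO of this list had no locus, and TDO2 (mean 0.01 FPKM) and KYNU (0.0) were at or near 0. KYAT3, a kynurenine aminotransferase joined with RBMXL1, averaged 17.1 ± 0.4 FPKM with BPA 0.25 nM, 14.8 ± 2.9 FPKM with BPA 2500 nM and 14.97 ± 2.32 FPKM with E2, against 17.1 ± 0.04 FPKM in DMSO. IL4I1, an amino acid oxidase joined with NUP62 and SIGLEC11, averaged 14.1 ± 0.3, 13.9 ± 0.9 and 13.5 ± 1.4 FPKM, against 14.6 ± 0.4 FPKM in DMSO; how much of it belongs to IL4I1 was not tested. AADAT, which makes kynurenic acid, averaged 8.19 ± 2.04, 8.85 ± 0.60 and 9.85 ± 1.12 FPKM, against 8.39 ± 1.12 FPKM in DMSO. The list medians were -0.001, 0.044 and -0.105.

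Genes that conjugate or convert oestrogens and bisphenols gave 7 tested genes. GSTP1, a glutathione transferase, averaged 168 ± 12 FPKM with BPA 0.25 nM, 162 ± 1 FPKM with BPA 2500 nM and 155 ± 19 FPKM with E2, against 156 ± 9 FPKM in DMSO. HSD17B4, which oxidises oestradiol and fatty acids in peroxisomes, averaged 6.24 ± 0.20, 5.83 ± 0.35 and 6.49 ± 0.14 FPKM, against 6.30 ± 0.07 FPKM in DMSO. HSD17B1, which reduces oestrone to oestradiol, averaged 4.76 ± 0.54, 4.28 ± 0.28 and 4.05 ± 0.28 FPKM, against 4.23 ± 0.15 FPKM in DMSO. The list medians were 0.103, 0.013 and -0.131, and the E2 median became 0.014 when only loci with a mean of at least 5 FPKM were kept.

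The other bHLH-PAS factors, structural relatives of AHR and ARNT, gave 5 tested genes of 11. HIF1A, the hypoxia factor that pairs with ARNT, was counted jointly with SNAPC1 and averaged 32.1 ± 0.8 FPKM with BPA 0.25 nM, 30.9 ± 2.1 FPKM with BPA 2500 nM and 34.3 ± 2.2 FPKM with E2, against 33.8 ± 0.6 FPKM in DMSO. CLOCK, a core factor of the circadian clock, averaged 4.83 ± 0.41, 4.66 ± 0.21 and 5.04 ± 0.78 FPKM, against 4.89 ± 0.71 FPKM in DMSO. NPAS1, a factor best known from neurons, averaged 3.35 ± 0.15, 3.97 ± 0.47 and 2.92 ± 0.83 FPKM, against 3.76 ± 0.23 FPKM in DMSO. The list medians were -0.072, -0.051 and 0.017.

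**Figure D4:**
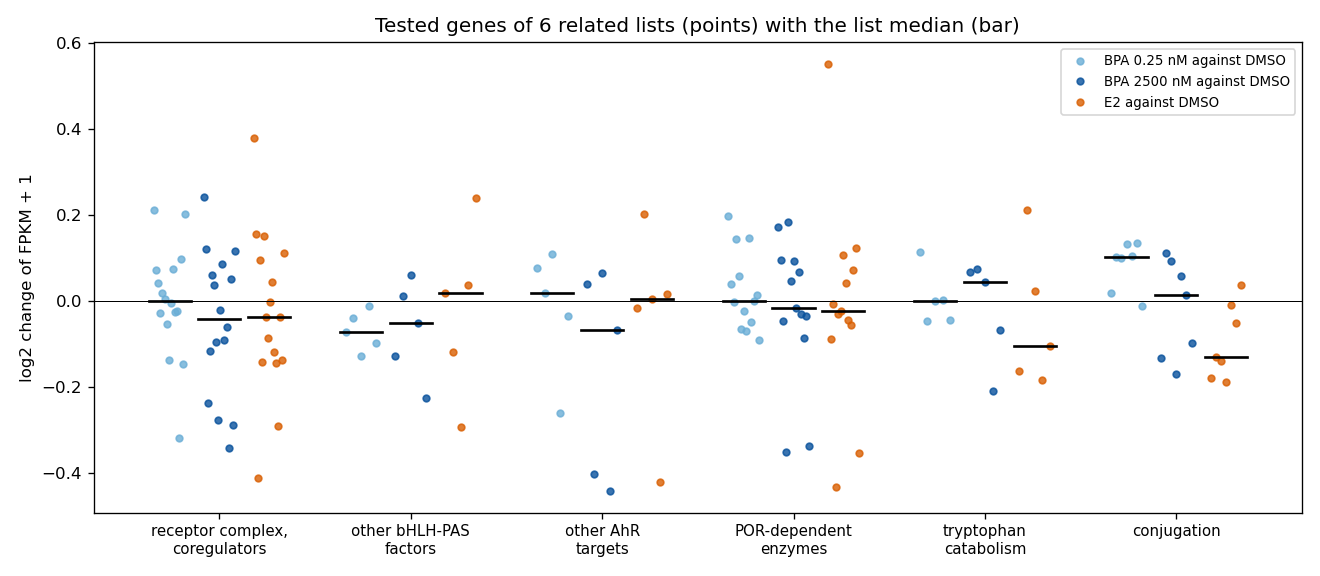
Difference from DMSO on the log2(FPKM + 1) scale (vertical axis) for the tested genes of the 6 lists. Points are genes, black bars are list medians, and colours give BPA 0.25 nM, BPA 2500 nM and E2 from left to right within a list. The medians lie between -0.131 and 0.103, and single genes below -0.4 include STC2 with BPA 2500 nM and E2.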

How the data were processed

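Per the labels' protocols, RNA was prepared with Trizol and read on an Illumina NovaSeq instrument. The authors deposited 1 FPKM value per locus and library. The submitters' processing notes name HISAT, StringTie, UMI-tools and edgeR with no version. They give the build as hg19, but start and end were identical to GENCODE 29 for 74.8% of the 14123 Ensembl loci found in it, so positions are on GRCh38.

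Loci with at least 1 FPKM in at least 2 libraries (12182) were tested on log2(FPKM + 1) with limma 3.58.1 in R 4.3.3 (statmod 1.5.0, trend and robust settings), with 1 mean per group, all 11 libraries in 1 fit and 7 residual degrees of freedom. Tests were two-sided, adjusted by Benjamini-Hochberg over all loci within each of 6 comparisons. The calling was tested on simulated data. Tables and plots used matplotlib 3.10.9, numpy 2.4.6 and pandas 2.3.3 in Python 3.11.15. Members and lists were chosen with earlier results of these data known. All members are named, and of each list the called genes or otherwise the 3 of highest mean. Some list results are not reported here. Alternatives covered the pseudocount, filter, scaling, variance model, replicate block, groups fitted and each library left out. Precision comes from the spread between libraries, since absolute depth is unknown.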

Additional observations from a re-analysis of the deposited data

How the results depend on the processing

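Under 18 alternative settings, 630 recomputed log2 differences of the 6 tested members gave 0 calls in any comparison, and the lowest adjusted p was 0.126 (TIPARP, E2 against DMSO, median-of-ratios scaling). 4 of the 630 moved beyond their error, all of CYP1A1 with a pseudocount of 0.1, as the smaller pseudocount by its construction widens the differences of low genes: -0.388 for BPA 2500 nM against DMSO, -0.485 for E2 against DMSO, -0.548 for BPA 2500 nM against BPA 0.25 nM and -0.645 for E2 against BPA 0.25 nM. Leaving out 1 library at a time gave CYP1A1 differences of -0.272 to -0.141 for BPA 2500 nM and -0.321 to -0.19 for E2 against DMSO, and 0.141 to 0.271 for TIPARP with E2. Without 1 E2 library the other one is assumed to vary like the other groups. Of 324 recomputed list medians, 3 moved by more than the median SE of their list, all with a mean of at least 5 FPKM. The conjugation list moved from -0.131 to 0.014 with E2. With BPA 2500 nM the other bHLH-PAS factors moved from -0.051 to -0.128 and the POR-dependent enzymes from -0.017 to 0.067. STC2 was called with BPA 2500 nM in 3 of 17 settings (lowest adjusted p 0.048).

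The count of called loci over the whole table depended on the setting. For BPA 0.25 nM against DMSO (2 called) it was 0 with a mean of at least 5 FPKM, 1 without trend and robust settings, 9 with only these groups fitted and 0 to 9 with 1 library left out. For BPA 2500 nM against DMSO (158) it was 39 without a filter, 102 with a mean of at least 5 FPKM, 13 with only these groups and 32 to 251 with 1 library left out. For E2 against DMSO (51) it was 33 without a filter, 2 with only these groups and 7 to 190 with 1 library left out. For BPA 2500 nM against BPA 0.25 nM (8) it was 2 with median-of-ratios scaling, 3 without trend and robust settings, 3 with only these groups and 2 to 7 with 1 library left out. For E2 against BPA 0.25 nM (6) it was 23 without a filter and 2 to 213 with 1 library left out, and for E2 against BPA 2500 nM (5) it was 19 without a filter, 3 with only these groups and 4 to 57 with 1 library left out. The cause was not tested. Samples with the same replicate number showed no clear shared deviation (median correlation -0.006 over 15 pairs, from -0.117 to 0.164). Deviations from the means of so few libraries cannot show whether the numbers pair them. The replicate block gave 1, 38 and 5 calls for BPA 0.25 nM, BPA 2500 nM and E2 against DMSO. It gave 3 for BPA 2500 nM and 3 for E2 against BPA 0.25 nM. Summing several loci per member was not run, since each member had 1 locus. Depth limits AHR most, with at most an estimated 6.3 fragments per library.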

Other observations

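A few loci beside the pathway took widely separated levels within groups, chosen here after their values were seen. CYB5B, a small haem protein of the outer mitochondrial membrane, had 25.9, 27.3 and 12.5 FPKM with BPA 0.25 nM, 12.0, 27.0 and 25.8 FPKM with BPA 2500 nM, 26.6 and 26.9 FPKM with E2, and 10.2, 20.7 and 27.0 FPKM in DMSO. The low libraries came from 3 of the 4 groups. PGRMC2, a haem-binding protein, had 14.2, 13.8 and 13.4 FPKM with BPA 0.25 nM, 13.8, 4.13 and 14.2 FPKM with BPA 2500 nM, 4.17 and 18.1 FPKM with E2, and 16.4, 8.02 and 14.4 FPKM in DMSO. Its low libraries were not those of CYB5B. NFE2L2, which encodes the oxidative stress factor NRF2, had 3.22 FPKM in BPA 2500 nM replicate 2, and 7.89 to 10.09 FPKM in the other libraries. The cause was not tested.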
